A study of Homo sapiens with 2 samples.

Results

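Of the hnRNP and SR genes of H1299 cells, HNRNPM stood furthest apart between a control and a PHF12 knockdown library, at 0.528 of the control level, while no other hnRNP or SR gene of at least 50 counts per 1000000 (CPM) reached 1.2-fold on that scale. The genes described are the heterogeneous nuclear ribonucleoproteins (hnRNPs) and the serine and arginine rich splicing factors (SR proteins). They were chosen by name, as protein-coding genes whose symbol begins with HNRNP and a letter or with SRSF and a digit. This gave 37 of the 38637 genes listed, 25 hnRNP genes and 12 SR genes. Poly(A)-selected RNA was sequenced from the human line H1299, which comes from a non-small cell lung cancer, in 2 libraries. The control group was labelled as wild type with no treatment, although its title ends in nc, and the other group as wild type with PHF12 knockdown, with the prefix si in its title. Whether the control cells received an oligonucleotide, and the time between treatment and harvest, were not given in the sources used here.

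Each group had 1 library, so no difference has a replicate check and none was tested. Folds divide the knockdown level by the control level, in CPM on scaled library sizes. Each fold is followed by a 95% interval that covers counting error only. The control had 24740581 counts in total, the knockdown 26084594. PHF12 itself, which acts with Sin3 and histone deacetylases as a corepressor, had 947 and 756 counts, a fold of 0.753 (0.683 to 0.829). Of the genes used as a scale, TBP stood at 0.947, GAPDH at 0.933, ACTB at 1.17 and HPRT1 at 0.767. The mesenchymal markers VIM, ZEB1, CDH2 and TGFBI were all measured and CDH1 was at 0 in both libraries. Markers of lung epithelium summed to under 1 TPM (transcripts per 1000000) in each library, at 0.834 and 0.255. Those of endothelium summed to 1.12 and 1.23 TPM, of fibroblasts to 1.04 and 1.24 and of neuroendocrine cells to 3.48 and 3.07. Of the blood markers CD3E, PTPRC and HBB were at 0 in both, and the lysosomal gene CD68 had 3891 and 5053. The long nuclear RNA NEAT1 stood at 1.31 (1.28 to 1.35) in the knockdown library, and the ribosomal RNA genes RNA28SN3 and RNA45SN3 at 0.445 and 0.470. The part of these RNAs in the results below was not tested.

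hnRNPs coat nascent transcripts in the nucleus, and many of them bind intronic or exonic silencers and oppose the use of a nearby splice site. SR proteins carry RNA recognition motifs and a domain rich in arginine and serine, bind exonic enhancers and help recruit the U1 snRNP and U2AF. Members of both families are known to limit their own messages by splicing in exons that send the transcript to nonsense-mediated decay. The counts are per gene and do not separate productive from such non-productive transcripts, so they describe transcript abundance and not splicing.

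Of the 37 genes, 33 averaged 1 CPM or more: 21 of 25 hnRNP genes and all 12 SR genes. The other 4, the HNRNPC-like genes HNRNPCL1, HNRNPCL2, HNRNPCL3 and HNRNPCL4, had 0 counts in both libraries, which allows up to 0.122 CPM in the control and 0.115 CPM in the knockdown library. A gene was called different at 1.2-fold or more on the scale log2(CPM + 0.5). Across all 14559 genes measured, 11.7% were lower and 10.3% were higher by this rule, 22.0% in all. Among the 33 genes 2 were called, HNRNPM and SRSF12, both lower, which is 6.06%, below the background. Genes with few counts pass a fold more readily, so the share was also taken among the 4869 genes that averaged 50 CPM or more, where 10.8% were called. Of the 30 hnRNP and SR genes in that range HNRNPM alone was called, and with the deposited TPM in place of CPM HNRNPH2 also passed, as higher, at a log2 fold change of 0.27. Counting intervals excluded a fold of 1 for 41.1% of all genes and for 17 of the 33, and for 60.2% of the genes of at least 50 CPM against 16 of the 30.

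**Figure D1:**
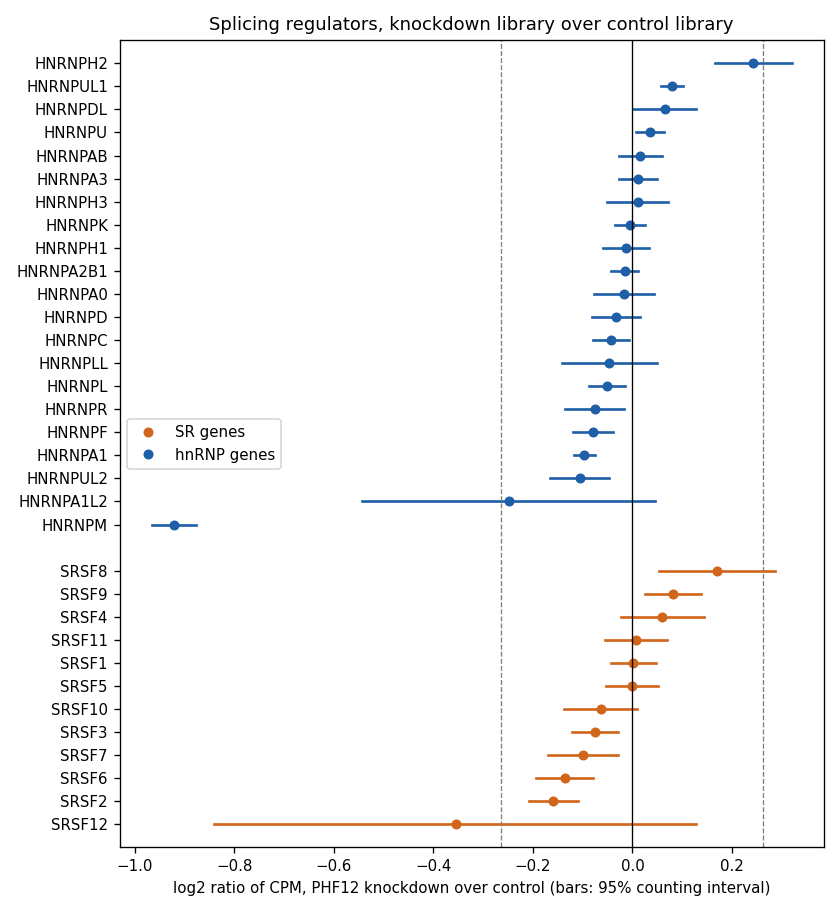
Log2 ratio of CPM in the PHF12 knockdown library over the control library for the 21 hnRNP genes (blue) and 12 SR genes (orange) with at least 1 CPM. Points are the ratios without a pseudocount, bars the 95% counting intervals, and dashed lines mark 1.2-fold. HNRNPM lies at −0.92 and the next hnRNP gene, HNRNPA1L2, at −0.25 with an interval that includes 0.

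HNRNPM binds GU-rich RNA and is known for regulating the alternative splicing of CD44. It lies on chromosome 19 from 8444575 to 8489114 on the plus strand (hg38) and overlaps no other gene listed. Its counts were 11356 in the control and 6359 in the knockdown, or 407 and 219 TPM by the authors' values. The fold was 0.528 (0.512 to 0.545), a log2 ratio of −0.92 (−0.97 to −0.88). It ranked 57th by absolute log2 fold change among the 14559 genes measured, and 28 of these were further down. Among the 407 genes with at least its mean CPM only PABPC1 and VCL were further down.

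The place of HNRNPM among the hnRNP genes differed between the libraries. It was the 7th most abundant hnRNP gene per length in the control library and the 12th in the knockdown library. Its share of the summed hnRNP TPM was 5.92% in the control and 3.25% in the knockdown. Ratios of genes within a library do not depend on how the libraries are scaled. By this measure HNRNPM stood at 0.807 of the TPM of HNRNPL in the control and 0.441 in the knockdown, and at 0.365 and 0.206 of the TPM of HNRNPA1.

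The genes next to HNRNPM on chromosome 19 did not show a change of the same size. MARCHF2, the nearest measured gene upstream, had 446 and 506 counts, with a log2 ratio at 0.10 (−0.09 to 0.28). ZNF414, the nearest downstream, had 467 and 496 counts, at a log2 ratio of 0.00 (−0.18 to 0.19). RAB11B, one gene further upstream, had 3518 and 3052 counts, at a log2 ratio of −0.29 (−0.36 to −0.22).

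A sequence feature already tied to lower genes in these libraries was looked up in the hnRNP and SR genes. The words ACATCGA and CATCGAA had been picked earlier, from genes at least 1.5-fold lower in this comparison, HNRNPM among them, so a match in HNRNPM supports nothing on its own. They were searched on the transcript strand in the longest annotated 3′ UTR of each gene (GENCODE release 29), and the 2 words overlap by 6 bases. A match was found in 2.71% of 12323 measured protein-coding genes. Of the 33 genes, HNRNPM and SRSF2 each held 1. The median length searched was 1393 bases over the 12323 genes, 1687 over the hnRNP genes and 2317 over the SR genes, and longer stretches hold more words. The 30 bases around each match are shown with the matched word in capitals.
HNRNPM, chr19:8488861-8488890, plus strand: gccttttttaaACATCGAtacgagacctct
SRSF2, chr17:76735086-76735115, minus strand: accacatagtcCATCGAAgaagagtccttg
The HNRNPM match starts at base 193 of a 3′ UTR of 267 bases, and the SRSF2 match at base 1057 of 2046. SRSF2 was the lowest of the SR genes with at least 50 CPM, though only at 0.896 of the control level. SRSF12 at 0.782 and HNRNPA1L2 at 0.842, both with fewer reads, were lower and held no match. The words picked from higher genes, TCGGAGA and ATCGGAG, were found in 3.10% of the same 12323 genes and in 0 of the 33. A match describes these letters only. Whether it is a binding site or has a part in any difference was not tested.

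The other hnRNP genes differed little between the libraries. Over the 21 measured, HNRNPM included, the median log2 fold change was −0.02, and it was −0.02 without HNRNPM as well. The median was −0.01 for all genes measured and 0.01 for genes of at least 50 CPM. Of the 21, 14 lay below 0 and 7 above, and of the 20 without HNRNPM 13 and 7. The middle range of the 21, from the lower to the upper quartile, ran from −0.08 to 0.01. Without HNRNPM it ran from −0.06 to 0.01. The same range was −0.14 to 0.13 over all genes and −0.08 to 0.11 over those of at least 50 CPM. The range over the 20 hnRNP genes other than HNRNPM was −0.23 to 0.24.

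**Figure D2:**
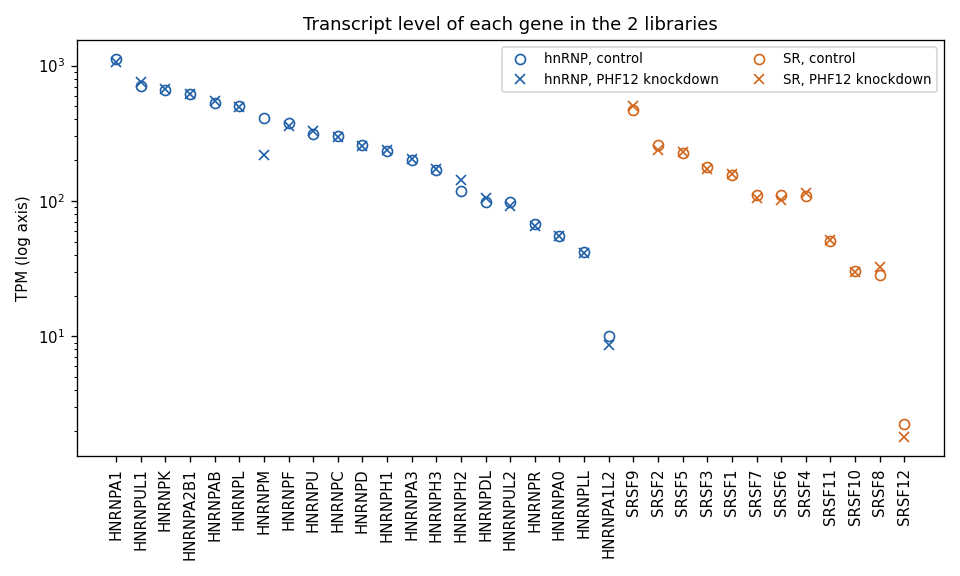
TPM of each hnRNP gene (blue) and SR gene (orange) with at least 1 CPM, on a log axis, in the control library (open circles) and the PHF12 knockdown library (crosses), ordered by the control level within each family. For most genes the marks lie on top of each other, and HNRNPM is at 407 and 219 TPM.

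The A/B type hnRNPs bind RNA through paired recognition motifs, and HNRNPA1, which antagonises SR proteins at many exons, was the most abundant hnRNP gene per length. Its TPM was 1116 in the control and 1062 in the knockdown, and its fold 0.935 (0.922 to 0.949). HNRNPA2B1 had 612 and 616 TPM, with a fold of 0.989 (0.970 to 1.01). HNRNPAB had 528 and 543 TPM, with a fold of 1.01 (0.981 to 1.04). HNRNPA3 stood at 1.01 (0.981 to 1.04) and HNRNPA0, a binder of AU-rich elements, at 0.988 (0.947 to 1.03). Except for HNRNPA1, these intervals include a fold of 1.

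HNRNPA1L2, an HNRNPA1-like gene on chromosome 13, had 206 and 184 counts and a fold of 0.842 (0.687 to 1.03). Its reads are uncertain because HNRNPA1 has many near-identical copies, of which HNRNPA1P10 had 137 and 153 counts. HNRNPD, also called AUF1 and known for promoting the decay of messages with AU-rich elements, stood at 0.978 (0.946 to 1.01). Its neighbour and relative HNRNPDL stood at 1.05, with a log2 ratio of 0.065 (0.002 to 0.127), an interval just above 0. None of these 8 genes of the A/B and D type was called.

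HNRNPC packages nascent RNA as a tetramer and binds runs of uridine, including those in antisense Alu elements. It had 301 and 297 TPM and a fold of 0.970 (0.946 to 0.995). HNRNPK and its relatives bind runs of cytidine through KH domains, and HNRNPK had 661 and 670 TPM and a fold of 0.997 (0.977 to 1.02), one of the nearest to 1 in the family. HNRNPL binds CA repeats and had 505 and 496 TPM, a fold of 0.966 (0.941 to 0.990). Its paralogue HNRNPLL, known for the splicing of CD45 in T cells, was at 42.1 and 41.5 TPM, so that the ratio of HNRNPLL to HNRNPL was 0.0834 in the control and 0.0836 in the knockdown. HNRNPR stood at 0.949 (0.911 to 0.988).

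The F/H genes bind runs of guanosine. HNRNPF had 374 and 360 TPM, a fold of 0.947 (0.921 to 0.973), HNRNPH1 a fold of 0.991 (0.960 to 1.02) and HNRNPH3 one of 1.01 (0.966 to 1.05). HNRNPH2 was the highest of all 33 genes by fold and lay just under the 1.2-fold rule. It had 2427 and 3045 counts, 119 and 143 TPM, and a fold of 1.18 (1.12 to 1.25), and 157 of the 2160 genes with at least its mean CPM were further up. The ratio of HNRNPH2 to HNRNPH1 was 0.508 of their TPM in the control and 0.607 in the knockdown.

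The HNRNPH2 values carry an uncertainty of assignment. HNRNPH2, on chromosome X from 101408222 to 101414133, lies wholly inside the readthrough gene RPL36A-HNRNPH2 on the same strand, which had 7826 and 8775 counts. RPL36A, the ribosomal protein gene at the other end of the readthrough, had 7787 and 8222 counts, at a log2 ratio of −0.01 (−0.05 to 0.04), while the readthrough gene stood at 0.08 (0.04 to 0.12). How reads shared by such genes were counted is not given in the sources used here. GLA, which lies upstream of HNRNPH2 on the other strand, had 791 and 980 counts, at a log2 ratio of 0.22 (0.09 to 0.36).

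HNRNPU and its relatives hold a SAP domain and associate with chromatin and the nuclear matrix. HNRNPU had 314 and 327 TPM and a fold of 1.02 (1.005 to 1.04). HNRNPUL1, the 2nd most abundant hnRNP gene per length, had 709 and 762 TPM and a fold of 1.06 (1.04 to 1.07). HNRNPUL2 had 97.5 and 92.1 TPM and a fold of 0.929 (0.891 to 0.968), and most of its span is shared with the readthrough gene HNRNPUL2-BSCL2 on the same strand, at 3783 and 3808 counts. The 3 intervals exclude a fold of 1, with HNRNPUL2 on the other side from HNRNPU and HNRNPUL1.

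Among the SR genes the median log2 fold change over the 12 was −0.03, with 7 below 0 and 5 above and a range from −0.30 to 0.17. SRSF9 was the most abundant per length and made up 27.1% of the summed SR TPM in the control and 28.98% in the knockdown. It had 469 and 505 TPM and a fold of 1.06 (1.02 to 1.10), and it overlaps GATC on the other strand, at 1837 and 2113 counts. SRSF1, the founding member and a known proto-oncogene, had 155 and 158 TPM and a fold of 1.001 (0.971 to 1.03). SRSF5 had 226 and 230 TPM and stood at 0.9996 (0.964 to 1.04).

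The SR genes with an interval below a fold of 1 were SRSF2, SRSF3, SRSF6 and SRSF7. SRSF2, a marker protein of nuclear speckles, had 260 and 237 TPM and a fold of 0.896 (0.866 to 0.927), and it overlaps MFSD11 on the other strand, at 2680 and 2692 counts. SRSF6 had 111 and 102 TPM and a fold of 0.910 (0.874 to 0.947). SRSF7 and SRSF3, which are known to link splicing to mRNA export, stood at 0.933 (0.889 to 0.979) and 0.949 (0.919 to 0.980). Intervals above 1 were found for SRSF9 and SRSF8. None of these genes reached 1.2-fold.

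SRSF4, a relative of SRSF5 and SRSF6 with a long RS domain, had 109 and 115 TPM and a fold of 1.04 (0.984 to 1.10). The ratio of SRSF6 to SRSF4 was therefore 1.02 of their TPM in the control and 0.889 in the knockdown. SRSF8, which is close to SRSF2 in sequence, had 1098 and 1310 counts and a fold of 1.13 (1.04 to 1.22), and the ratio of SRSF8 to SRSF2 was 0.109 and 0.137. SRSF10, known as a repressor of splicing when dephosphorylated, stood at 0.957 (0.909 to 1.01), and SRSF11 at 1.01 (0.962 to 1.05) on 3970 and 4231 counts.

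SRSF12, a relative of SRSF10, was the 1 SR gene called lower, on few reads. It had 82 and 68 counts, 2.25 and 1.79 TPM, and a fold of 0.782 with an interval of 0.559 to 1.09 that includes 1. It lies within the span of PM20D2 on the other strand, which had 2984 and 3058 counts. A difference was thus not detectable for SRSF12 at this depth, and with a minimum of 5 CPM no SR gene was called.

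**Figure D3:**
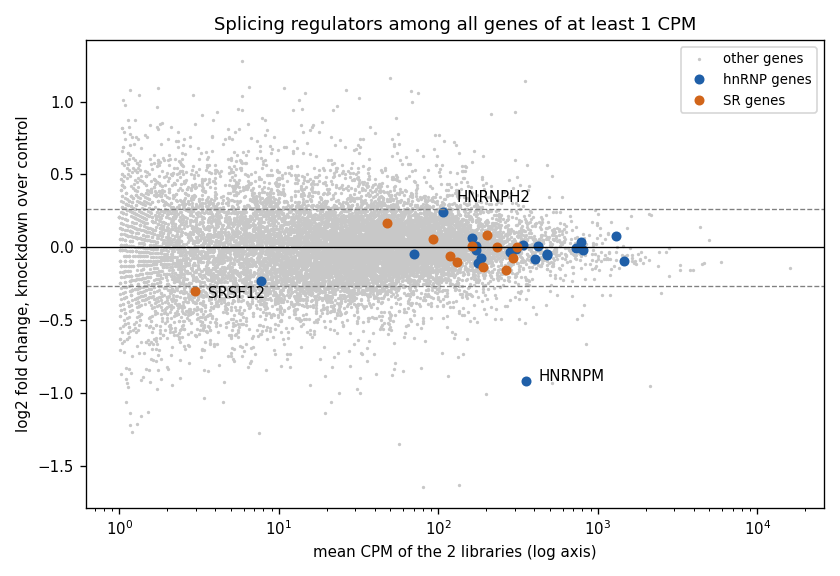
Mean CPM over the 2 libraries (log axis) against log2 fold change on the scale log2(CPM + 0.5) for the 14559 genes measured (grey), with hnRNP genes in blue and SR genes in orange and dashed lines at 1.2-fold. HNRNPM lies apart from the genes of like abundance, and SRSF12 lies among the scattered genes of low CPM.

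Set against each other, the hnRNP and SR families differed by 0.01 in median log2 fold change, hnRNP minus SR. This difference was −0.02 with a minimum of 5 CPM and so has no settled direction. All hnRNP genes together took 0.931% of the counts in the control library (95% Wilson interval 0.927 to 0.934) and 0.907% in the knockdown library (0.903 to 0.910). Without HNRNPM the shares were 0.885% and 0.882%, with intervals that overlap, while on the scaled library sizes the summed counts stood at 0.991 of the control, a log2 ratio of −0.012 (−0.021 to −0.0040) whose interval excludes 0. The SR genes took 0.206% (0.205 to 0.208) and 0.202% (0.200 to 0.204). Reads without molecular identifiers are not independent molecules, so these intervals cover counting error only.

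The balance of the families per length moved with HNRNPM. The summed TPM of the SR genes was 0.252 of that of the hnRNP genes in the control and 0.259 in the knockdown. Without HNRNPM the ratio was 0.268 in the control and 0.267 in the knockdown. The summed hnRNP TPM was 6875 and 6732, and the summed SR TPM 1731 and 1741. On the scaled library sizes the summed SR counts stood at 0.973 of the control, a log2 ratio of −0.039 (−0.057 to −0.021). The direction for the SR sum thus differs between TPM and counts.

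The hnRNP-type proteins under other names, such as PTBP1 and the PCBP genes, had a median log2 fold change of −0.03 over 26 measured. Of these, 0 were called in either direction, against 22.0% of all genes and 10.8% of those of at least 50 CPM. Their members furthest from 1 were CELF1 at 1.17 (1.12 to 1.23), CIRBP at 0.857 (0.797 to 0.920) and PSPC1, a paraspeckle protein, at 0.858 (0.812 to 0.907). SR-related proteins had a median of −0.01 over 29, with 1 called higher. That is 3.45%, below the 22.0% of all genes and the 10.8% of those of at least 50 CPM. The gene called was RNPS1, an exon junction complex subunit, with 2747 and 3834 counts and a fold of 1.32 (1.25 to 1.38). RBM39 and TRA2A followed, both at 0.862.

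SR proteins are phosphorylated by the SRPK and CLK kinases and imported by transportins. Of 16 such genes, phosphatase subunits included, 2 were called higher and 0 lower, with a median of 0.00. That is 12.5%, against 22.0% of all genes and 10.8% of those of at least 50 CPM. The kinase gene CLK3 had 852 and 1185 counts and a fold of 1.31 (1.2 to 1.43), and the phosphatase gene PPP1CB had 3139 and 4237 counts and a fold of 1.27 (1.22 to 1.33). CLK2 stood at 0.845 (0.737 to 0.968).

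Arginine methyltransferases modify the RGG boxes of hnRNPs. Of 8 measured, 1 was called lower and 1 higher. That is 25%, against 22.0% of all genes and 10.8% of those of at least 50 CPM. PRMT1, known as the main type I enzyme and the one that methylates many hnRNPs, had 3733 and 2568 counts, 243 and 161 TPM, and a fold of 0.649 (0.617 to 0.682). PRMT6, another type I enzyme, had 239 and 463 counts and a fold of 1.83 (1.56 to 2.14). PRMT7 was next at 0.834 (0.749 to 0.929). 

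Core spliceosome subunits recognise the splice sites and catalyse splicing. Of 27 measured genes of the U1 and U2 snRNPs and U2AF, 20 lay above 0, with a median of 0.05, and 4 were called higher and 0 lower, 14.8% against 22.0% of all genes and 10.8% of those of at least 50 CPM. PHF5A had 592 and 797 counts and a fold of 1.27 (1.14 to 1.41), SF3B2 a fold of 1.23 (1.19 to 1.28) and SF3A3 one of 1.23 (1.18 to 1.29), all in the U2 snRNP. Of 20 tri-snRNP and Prp19 complex genes, 14 lay above 0, with a median of 0.05, and PLRG1 alone was called, at 1.25 (1.15 to 1.35). That is 5%, below the 22.0% of all genes and the 10.8% of those of at least 50 CPM. DDX23 stood at 1.18 and SART1 at 1.17. Of all 14559 genes measured, 7040 lay above 0, with quartiles of −0.14 and 0.13 for single genes. Of the 4869 genes of at least 50 CPM, 2567 lay above 0, with a median of 0.01. Whether the 2 lists differ from these was not tested.

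Both families limit their own messages through nonsense-mediated decay. Of 15 genes of this pathway measured, 2 were called higher and 2 lower, and the median was 0.00. That is 26.7%, against 22.0% of all genes and 10.8% of those of at least 50 CPM. SMG8 stood at 1.28 (1.19 to 1.39) and its binding partner SMG9 at 0.781 (0.758 to 0.804), with UPF3B at 0.817 (0.755 to 0.884). Of 19 tissue-restricted splicing factors 11 were measured, with a median of −0.12, and 3 were called lower and 0 higher, 27.3% against 22.0% of all genes. They were RBM24, with 747 and 578 counts and a fold of 0.730 (0.653 to 0.814), NOVA2, at 0.720 (0.498 to 1.04) on 72 and 55 counts, and MBNL2 at 0.787 (0.694 to 0.893). The 4 words were searched in the 24 protein-coding genes furthest from 0 in these 8 lists, and 21 held none, among them the lower PRMT1, SMG9, UPF3B and MBNL2 and the higher PRMT6, RNPS1, CLK3 and SF3B2. RBM24 and NOVA2 each held 1 match to a word of lower genes, and PHF5A held 2 to the words of higher genes. Over the 12323 measured protein-coding genes, 2.71% held a match to the words of lower genes and 3.10% to those of higher genes. The 3′ UTR searched was 1756 bases long in RBM24, 6129 in NOVA2 and 681 in PHF5A, against a median of 1393.

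**Figure D4:**
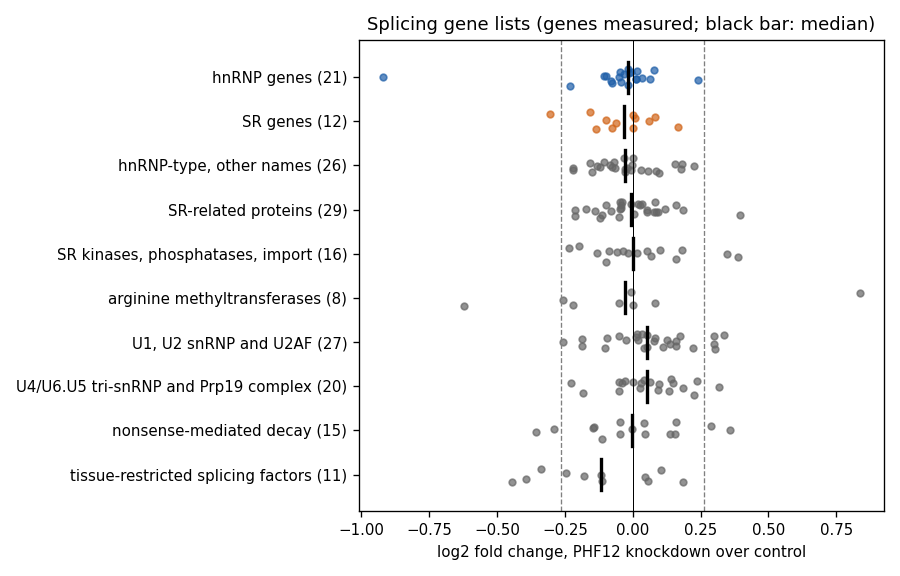
Log2 fold change, on the scale log2(CPM + 0.5), of each measured gene in the hnRNP and SR families and in 8 lists of related genes, with the number measured in brackets, the list median as a black bar and dashed lines at 1.2-fold. Medians lie between −0.12 and 0.05, and HNRNPM at −0.92, PRMT1 at −0.62 and PRMT6 at 0.84 are the values furthest from 0.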

How the data were processed

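The authors deposited a table of raw counts per gene with gene length and position, 1 column per library. The submitters' processing notes name HISAT2, HTSeq and the build hg38. Versions, strand setting and the treatment of shared reads were not given in the sources used here, so reads of overlapping genes, paralogues and pseudogenes cannot be told apart. Besides the overlaps given above, HNRNPAB, HNRNPH3, HNRNPK, HNRNPUL1 and SRSF5 overlap a gene on the other strand. The authors also deposited TPM, which counts divided by the listed length return to within 1e-06. A listed length covers all isoforms and lowers the TPM of genes with long alternative exons.

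Scaling used trimmed mean of M-values factors from edgeR 4.0.16 (R 4.3.3), and DESeq2 1.42.0 size factors as an alternative. Columns were matched to samples by title. Genes averaging 1 CPM or more were kept, and called at 1.2-fold on log2(CPM + 0.5). Printed folds carry no pseudocount. Their intervals are exact conditional Clopper-Pearson 95% intervals of a ratio of 2 Poisson counts. No p-value was computed, since each group has 1 library. The fold rule and the intervals were run on simulated Poisson counts. That is the model the intervals assume, with no variation between cultures, so the simulation does not stand in for replicates. Further steps used Python 3.11.15, pandas 2.3.3, scipy 1.17.1 and matplotlib 3.10.9.

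All hnRNP and SR genes are named, and for 9 lists of related genes the 3 measured members furthest from 0. The genes and lists were chosen with earlier results of these data known. Some marker genes are not reported here.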

Additional observations from a re-analysis of the deposited data

How the results depend on the processing

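The alternatives chosen in advance were total-count and DESeq2 scaling, pseudocounts of 0.1 and 1 CPM, the deposited TPM, no filter, a minimum of 5 CPM, a thinned knockdown library and a call at 1.5-fold. A minimum of 50 CPM and leaving out HNRNPM were chosen after seeing the data. Over these, HNRNPM stayed between −0.92 and −0.89 in log2 fold change and HNRNPH2 between 0.24 and 0.27. With the deposited TPM 1 hnRNP gene, HNRNPH2, was called higher in place of 0. The count of lower SR genes, 1, was 0 with a minimum of 5 CPM, with a minimum of 50 CPM and at 1.5-fold. The count of lower hnRNP genes was 0 without HNRNPM. The hnRNP median ran from −0.02 to 0.01 and the SR median from −0.04 to −0.00. Of 293 values of single genes under an alternative, 14 changed sign, in 6 genes that all lay within 0.02 of 0. The median of all genes moved by 0.01 with total counts and by 0.02 with DESeq2 scaling and with the deposited TPM. No paired analysis was possible because each group has 1 library. At this depth genes such as SRSF12, with under 100 counts, cannot separate a 1.2-fold difference from counting error.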
